A study of Mus musculus with 20 samples.

Results

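Tumors that had received only the control vector were described here from the 5 arrays of the eGFP group, out of 20 arrays in the series. The 5 arrays were chosen by their titles alone, as tumors transduced with AdeGFP and no other vector. Each array measured total RNA of implanted LLC-1 tumor tissue grown in a C57Bl/6 host and injected with an adenoviral vector coding for enhanced green fluorescent protein (eGFP). The other groups were tumors given AdIFNBeta, p19Arf, or AdIFNBeta and p19Arf together, with 5 arrays each. All 4 groups shared the host strain, the implanted line, the adenoviral backbone and the schedule of 5 injections, 48 h apart, each of 25 µl of PBS that carried, as a log10 number of infectious units, 8 of virus. The labels do not say whether the 5 arrays came from separate animals or tumors, and "tumors" below means these arrays. There was no uninjected tumor, so the eGFP tumors are a baseline for vector injection and not for untreated growth.

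LLC-1 is the Lewis lung carcinoma line, which arose in the lung of a C57BL mouse and forms poorly differentiated, fast growing tumors when implanted into mice of that strain. An implanted tumor is a mixture: beside the carcinoma cells it holds host macrophages and lymphocytes, fibroblasts that lay down collagen, and vessels lined by endothelium, and a piece cut at its edge can carry muscle, fat or skin. Macrophages are a common white cell of this tumor, and hypoxia, protease secretion and new vessel growth are well known features of it. Since whole tumors were measured, fewer cells of a type and less RNA per cell cannot be told apart in any value below.

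The deposited table held log2 expression values of 35556 probe sets, of which 19938 genes could be named and used. Replicate 1 of the eGFP group stood apart from the other 4 eGFP arrays. Its values had the narrowest spread over genes, an SD of 1.80 on the log2 scale against 1.83 to 1.93 on the others. Its correlations with the others were 0.985 to 0.990, whereas other pairs reached 0.996. Small nucleolar RNA genes averaged 9.72 on it and 9.14 to 9.50 on the other eGFP arrays, and proteasome (Psm) genes averaged 9.94 and 10.06 to 10.15. The part that RNA quality or labelling plays in this was not tested, and results that rest on replicate 1 are given with and without it. Over the whole series replicate 1 was not the narrowest, since the spread of the 15 other arrays ran from 1.66 to 1.97. Between the eGFP arrays and the 15 others no difference passed the test in spread (1.87 ± 0.06 in eGFP and 1.83 ± 0.09 in the other vectors, SD, n = 5 and 15), in the mean of olfactory receptor genes or in the mean of small nucleolar RNA genes (exact 2-sided permutation tests over 15504 splits, adjusted p = 0.552 for each of 3 measures).

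The table carried no detection call. A gene was therefore counted as expressed when its value exceeded the 95th percentile of the 1027 olfactory receptor genes, which are rarely transcribed outside the nose, on each of the 5 eGFP arrays. That level lay between 6.80 and 7.09. It was passed by 12804 of 19938 genes, 64.2%. A level on an array is a fluorescence signal that also depends on the probes, so it orders genes roughly and does not count transcripts. As a stricter level, chosen after the data were seen, the highest of 30 hepatocyte, neuron, photoreceptor and germ cell genes on each array was used, which lay between 7.26 and 7.61 and was passed by 10584 genes, 53.1%.

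Against the background of 64.2%, 108 of 124 carcinoma genes (87.1%), 176 of 231 immune genes (76.2%), 41 of 43 stromal genes (95.3%) and 36 of 45 vessel genes (80.0%) were above the olfactory receptor level on all 5 eGFP arrays. Markers of tissues that lie around an implant (muscle, fat, skin, hair, blood and nerve) were above it in 36 of 66 cases (54.5%), and 4 of the 30 genes of unrelated tissues (13.3%) were too. Those 4 were Apoa1, a liver apolipoprotein, Gad1, a neuronal enzyme, and the sperm protamines Prm1 and Prm2, with means of 7.45, 7.11, 7.29 and 7.24. Genes with means near these values cannot be told from genes of unrelated tissues. The group names follow the gene lists and do not mark the cell of origin. In the carcinoma group all 20 proliferation, 18 hypoxia and 16 protease genes were above the olfactory receptor level on all 5 arrays. Of its epithelial and lung lineage lists, 13 of 20 and 8 of 16 were. The stricter level was passed by 53.1% of all genes. It was passed by 98 of 124 carcinoma genes (79.0%), 146 of 231 immune genes (63.2%) and 35 of 43 stromal genes (81.4%). For vessel genes the count was 32 of 45 (71.1%) and for host tissue genes 17 of 66 (25.8%). Each list count below is to be read against 64.2% of all genes for the olfactory receptor level and 53.1% for the stricter one.

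**Figure D1:**
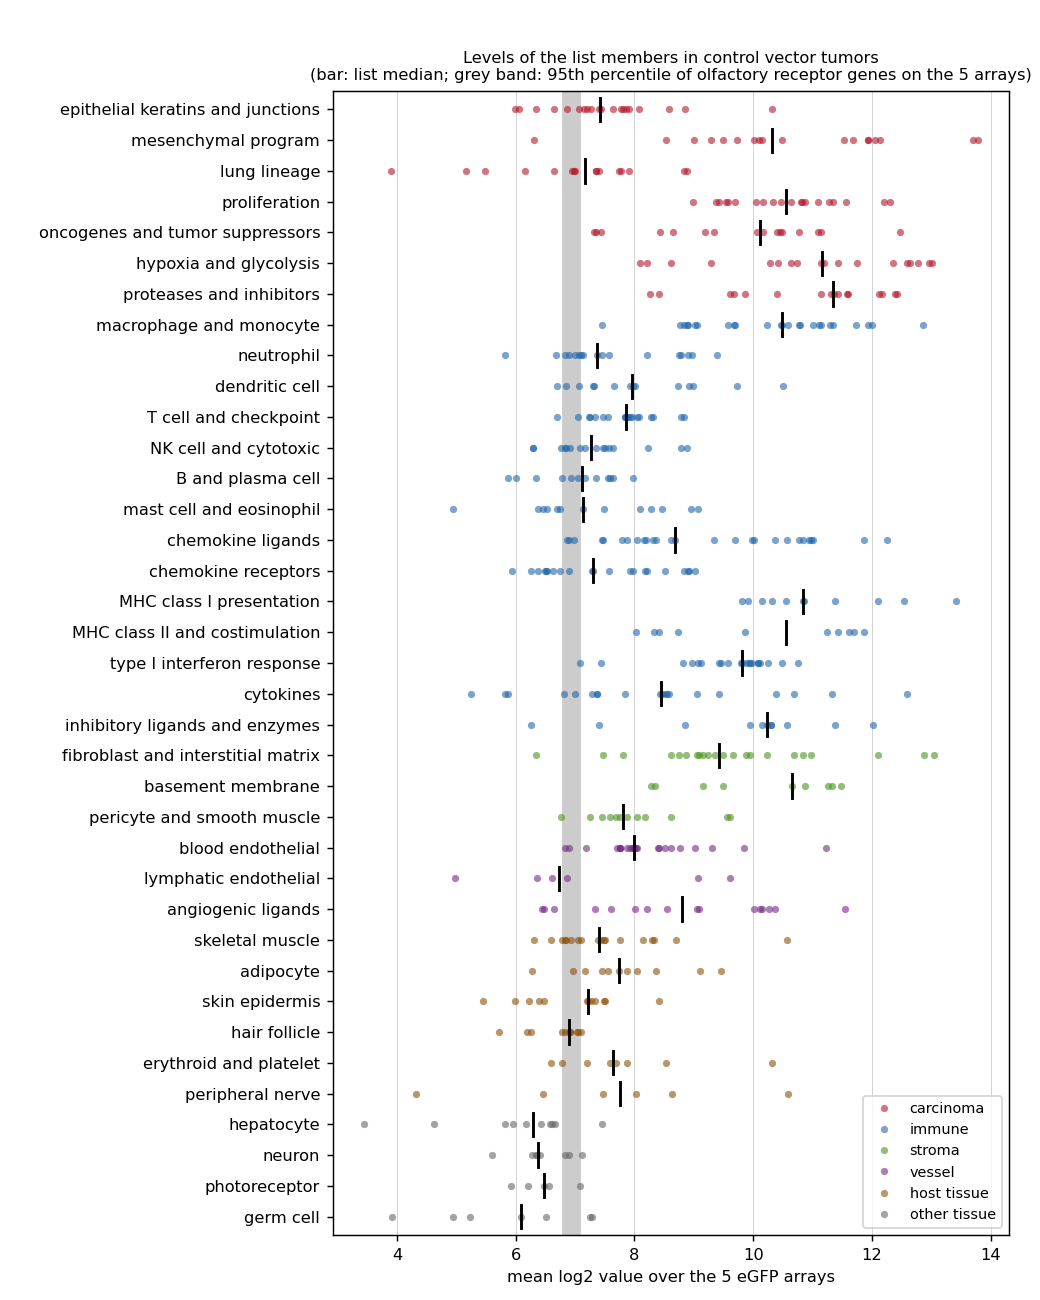
Mean log2 value over the 5 eGFP arrays (x axis) of every measured member of 37 gene lists (rows), 1 point per gene, coloured by compartment, with the list median as a bar and the range of the olfactory receptor level over the arrays as a grey band. The medians of hypoxia, protease, proliferation and macrophage genes lie far to the right of the band, whereas those of lymphatic, hair follicle and unrelated tissue lists lie in it or to its left.

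Ribosomal protein genes made up 27 of the 100 genes with the highest mean and small RNA genes 7. Eef1a1, the elongation factor that delivers tRNA to ribosomes, had the highest mean, 14.20 ± 0.01 (SD, n = 5). Among the other leading genes were Actb at 13.99 ± 0.07, Lgals1, a secreted galactose-binding lectin, at 13.79 ± 0.03, and Fth1, the ferritin heavy chain, at 13.75 ± 0.02. Vim, the intermediate filament of mesenchymal cells, reached 13.71 ± 0.04 and Txn1, thioredoxin, 13.70 ± 0.11. B2m, the light chain of MHC class I, stood at 13.42 ± 0.04. The same leading 20 genes held Tpt1, Hspa8, Ly6e, Rhoa, Eef2, Mt2, S100a11 and Atp5b, and the small RNAs Rpph1, Rn7sk and Rny3. Baiap2l1 and Kcnma1 were in this group only through 1 probe set each, at 14.20 and 13.67. The other probe sets of Baiap2l1 averaged 12.02 and 7.13 and the other one of Kcnma1 averaged 6.04, so the level of these 2 genes is uncertain. The edge of the leading 100 lay between Srrm2 at 12.54, inside, and Calr at 12.54, outside.

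Mesenchymal genes were high and steady, whereas several epithelial genes, Epcam among them, were near or below the olfactory receptor level. Of 18 genes of the mesenchymal program, 17 were above that level on all 5 arrays, with a list median of 10.31, and all 17 passed the stricter level. Beside Vim and Lgals1, the receptor tyrosine kinase Axl had 11.73, 11.95, 11.95, 12.01 and 12.05 on replicates 1 to 5, and Hmga2, a chromatin protein of embryonic and tumor cells, had 11.43 to 11.60. Of the transcription factors that repress E-cadherin, Zeb1 averaged 9.72 ± 0.17, Zeb2 10.15 ± 0.11, Snai1 8.53 ± 0.11, Snai2 10.09 ± 0.22 and Twist1 9.29 ± 0.05 (SD, n = 5). Cdh2, N-cadherin, was the exception at 6.30 ± 0.19 and was not above the level on any array.

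Of 20 epithelial genes, 13 were above the olfactory receptor level on all 5 arrays, where 64.2% of all genes were. The stricter level was passed by 9 of them, where 53.1% of all genes passed it, and the list median was 7.42. Epcam, the epithelial cell adhesion molecule, had 6.23, 6.18, 6.42, 6.26 and 6.62, below the level on every array. The same held for Cldn7, a tight junction claudin, and for Esrp1 and Grhl2, a splicing regulator and a transcription factor of epithelia. Cdh1, E-cadherin, averaged 7.64 ± 0.13, Krt8 7.78 ± 0.12 and Krt18 7.06 ± 0.12, where Krt8 and Krt18 encode the keratin pair of simple epithelia. Tight junction genes that endothelial cells also use were clearly higher, with Tjp1 at 10.31 ± 0.26 and Ocln at 8.85 ± 0.38. Ocln was 8.18 on replicate 1 and 8.89 to 9.10 on the others, and its SD without replicate 1 was 0.09.

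Of 16 lung lineage genes 8 were above the level on all 5 arrays, where 64.2% of all genes were. Sftpc, the surfactant protein of alveolar type 2 cells, averaged 6.15 ± 0.19 and Scgb1a1, the club cell secretoglobin, 3.89 ± 0.09, and neither was above the level on any array. Nkx2-1, the lung lineage factor, averaged 6.98 ± 0.19 and was above it on 3 arrays. The highest of the list were Hopx at 8.89 ± 0.11 and Abca3 at 8.83 ± 0.07, which are also expressed outside the lung.

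All 20 measured proliferation genes were above both levels, with a list median of 10.55. Mki67, the antigen of cycling cells, averaged 11.28 ± 0.10, Top2a, a topoisomerase of dividing cells, 11.10 ± 0.07, Pcna, the replication clamp, 12.30 ± 0.30, and Ccnd1, cyclin D1, 12.21 ± 0.05. Several were low on replicate 1. Ccnb2, a mitotic cyclin, had 10.80, 11.75, 11.86, 11.85 and 11.58 on replicates 1 to 5. The list score, the mean log2 value of its members on an array, was 10.27 on replicate 1 and 10.51 to 10.64 on the other 4, and its SD of 0.15 was 0.06 without replicate 1.

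Of the oncogenes and tumor suppressors, all 16 measured genes were above the olfactory receptor level. Myc averaged 12.47 ± 0.17, the hepatocyte growth factor receptor Met 11.14 ± 0.16, the AP-1 member Fosl1 10.46 ± 0.11 and Nras 10.40 ± 0.07. Cdkn2a, which encodes p16 and p19Arf, was low, with 7.38, 7.42, 7.54, 7.36 and 7.47, below the stricter level on some of the arrays. Mdm2, the p53 antagonist that p19Arf binds, stood at 10.07 ± 0.09.

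The hypoxia and glycolysis list had all 18 genes above both levels and a median of 11.16. Ldha, lactate dehydrogenase, averaged 13.02 ± 0.12, Aldoa, aldolase, 12.96 ± 0.09, Slc2a1, the glucose transporter GLUT1, 12.58 ± 0.11, and Egln3, an oxygen-sensing hydroxylase, 12.36 ± 0.09. Car9, carbonic anhydrase 9, averaged 8.21 ± 0.29 and varied more, between 7.88 on replicate 3 and 8.64 on replicate 2. Hilpda, a lipid droplet protein induced by hypoxia, was 9.82 on replicate 1 and 8.99 to 9.45 on the others.

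Proteases were among the highest lists, with all 16 genes above both levels and a median of 11.34. The lysosomal cathepsins Ctsb and Ctsl averaged 12.43 ± 0.06 and 12.40 ± 0.24. Mmp9, a gelatinase, had 11.75, 12.33, 12.32, 12.22 and 12.24, lowest on replicate 1. Mmp3, Mmp13, Mmp14 and Mmp12 averaged 11.43, 11.37, 11.32 and 11.14. The inhibitors were also present, with Timp2 at 11.58 ± 0.22 and Timp1 at 10.39 ± 0.17.

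Macrophage genes were the most fully expressed leukocyte list. All 25 macrophage and monocyte genes were above the olfactory receptor level, 24 of them above the stricter one, with a median of 10.49. Lyz2, lysozyme of myeloid cells, had 12.68, 12.88, 13.06, 12.94 and 12.77. The complement genes C1qa, C1qb and C1qc averaged 11.01 ± 0.20, 11.99 ± 0.34 and 11.29 ± 0.27, and Cd68 11.35 ± 0.27. Csf1r, the receptor for the macrophage growth factor, averaged 10.77 ± 0.19, and its ligand Csf1 11.33 ± 0.06. Mrc1, the mannose receptor of tissue macrophages, averaged 11.14 ± 0.19, whereas the scavenger receptor Cd163 averaged 7.46 ± 0.13.

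Arg1 and Nos2 encode 2 enzymes that compete for arginine in activated macrophages. Nos2 was steady at 9.43 to 9.91. Arg1 had 10.56, 9.29, 9.43, 9.21 and 9.95, highest on replicate 1, with an SD of 0.57 that was 0.34 without that array.

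Of 17 neutrophil genes 10 were above the level and 6 above the stricter one, where 64.2% and 53.1% of all genes were. Among them S100a8 (8.89 ± 0.39), S100a9 (9.38 ± 0.35), Csf3r (8.76 ± 0.45) and Cxcr2 (8.21 ± 0.41) were above the level on all 5 arrays. The granule genes Elane, Ltf and Ngp, made in bone marrow precursors, were the 3 of the list not above the olfactory receptor level on any array. Other granule genes of the list, namely Mpo, Camp and Mmp8, were each above that level on some array. Among dendritic cell genes 11 of 14 were above it, with Fscn1, an actin bundler also made by carcinoma cells, at 10.51 ± 0.25, Irf8 at 9.73 ± 0.16 and Ccr7 at 8.92 ± 0.25. Clec9a, a receptor of cross-presenting dendritic cells, was at 6.69 ± 0.18 and not above it on any array.

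T cell genes were lower but mostly above the level, 16 of 19, with 11 above the stricter one and a median of 7.87. Cd3e and Cd3g, chains of the T cell receptor complex, averaged 8.78 ± 0.11 and 8.05 ± 0.16, while Cd3d, another chain of it, was at 6.70 ± 0.17 and not above the level on any array. Cd8a had 8.60, 8.05, 8.57, 8.12 and 8.19, and Cd8b1 had 8.30, 7.66, 8.17, 7.93 and 7.60, both highest on replicates 1 and 3. Cd4 was at 7.89 ± 0.11. Tigit, an inhibitory receptor, averaged 8.83 ± 0.20, Havcr2 8.27 ± 0.35, Pdcd1, PD-1, 7.84 ± 0.22, Foxp3, the regulatory T cell factor, 7.84 ± 0.15, and Ctla4 7.48 ± 0.32.

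Of 16 NK cell and cytotoxic genes, 6 were above the olfactory receptor level on all 5 arrays and 3 above the stricter one. The NK receptors Ncr1 and Klrb1c averaged 6.29 ± 0.18 and 6.30 ± 0.22 and were not above it on any array. Gzmb, granzyme B, averaged 8.88 ± 0.21, Nkg7 8.78 ± 0.28 and Prf1, perforin, 8.22 ± 0.14. The granzymes encoded beside Gzmb on chromosome 14 varied in the same way over the tumors. Gzmd had 7.26, 8.01, 5.47, 6.94 and 6.90, Gzmf had 7.50, 8.41, 6.71, 7.40 and 7.49, and Gzmg had 8.31, 8.73, 7.28, 7.89 and 8.02 on replicates 1 to 5. Replicate 2 was highest and replicate 3 lowest for these 3 genes and also for Gzmc and Gzme. Gzmb had its highest value, 9.13, and its lowest, 8.56, on the same tumors over a narrower range, and Gzmn stayed between 4.75 and 5.32.

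These serine proteases are made by activated cytotoxic lymphocytes, and their genes are close copies, so probes of one can bind RNA of another and their separate signals are uncertain. The 150 bases before the start of Gzmc, Gzmd, Gzme, Gzmf and Gzmg are shown because these genes had their highest and lowest values on the same tumors. They are RefSeq sequences of build GRCm38.p6, all on the minus strand, printed 5′ to 3′ in lower case, with the cAMP response element TGACGTCA in capitals where it occurs. The windows are chr14:56234658-56234807 for Gzmc, chr14:56132594-56132743 for Gzmd, chr14:56120626-56120775 for Gzme, chr14:56211408-56211557 for Gzmf and chr14:56159580-56159729 for Gzmg.
Gzmc: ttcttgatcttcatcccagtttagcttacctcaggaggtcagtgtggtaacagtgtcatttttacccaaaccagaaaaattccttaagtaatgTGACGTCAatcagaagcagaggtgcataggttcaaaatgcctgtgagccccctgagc
Gzmd: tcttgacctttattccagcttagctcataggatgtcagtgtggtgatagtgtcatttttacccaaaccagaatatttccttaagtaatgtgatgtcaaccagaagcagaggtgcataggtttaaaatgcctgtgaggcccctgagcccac
Gzme: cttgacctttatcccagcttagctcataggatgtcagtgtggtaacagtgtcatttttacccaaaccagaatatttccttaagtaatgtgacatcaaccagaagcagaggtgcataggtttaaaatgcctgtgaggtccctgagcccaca
Gzmf: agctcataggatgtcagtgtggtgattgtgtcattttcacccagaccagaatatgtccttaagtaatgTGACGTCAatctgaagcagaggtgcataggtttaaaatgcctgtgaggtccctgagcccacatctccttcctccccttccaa
Gzmg: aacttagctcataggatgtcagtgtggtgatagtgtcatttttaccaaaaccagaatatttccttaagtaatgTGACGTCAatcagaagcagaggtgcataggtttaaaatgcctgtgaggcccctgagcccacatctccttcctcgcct
Aligned in pairs, the 5 windows were 63.4% to 94.7% identical, with a median of 77.9% over 10 pairs. The letters TGACGTCA, which read the same on both strands, were in the windows of Gzmc, Gzmf and Gzmg, starting at -57, -82 and -77 from the gene start, and in neither of the other two. They were in 447 of 32851 windows of the same length before all genes in the table, 1.36%. TATAAA, searched on both strands, was in none of the 5 windows and in 7.57% of all windows. Both motifs were chosen after the sequences were seen, and a match is a description of letters and not a site.

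The B cell list score was highest on replicate 4, at 7.53, against 6.72 to 7.05 on the others, though some members were not low there. Of 12 B and plasma cell genes, 6 were above the olfactory receptor level on all 5 arrays and 1 above the stricter one. Over all genes these shares were 64.2% and 53.1%. Ms4a1, CD20, had 5.77, 5.38, 5.32, 7.44 and 5.43, so that it was above the level only on replicate 4. Jchain, the joining chain of secreted antibodies, had 7.79, 6.14, 6.82, 8.69 and 5.85, and Cd79b, a chain of the B cell receptor, had 7.63, 7.87, 7.94, 8.65 and 7.75. Replicate 4 was also highest for Ighm at 8.16, Pou2af1 at 8.06 and Bank1 at 8.24, the last of which is not in the list and was chosen after its values were seen. Cxcl13, the chemokine that draws B cells into follicles, had 6.43, 7.00, 7.86, 8.64 and 7.40, again highest on replicate 4, and its receptor Cxcr5, though below the level, was highest there too at 6.44. Of mast cell genes, Cpa3, carboxypeptidase A3, averaged 8.95 ± 0.38, Tpsb2, a tryptase, 8.46 ± 0.22 and Mcpt4, a chymase, 8.28 ± 0.22. The eosinophil granule genes Prg2 and Epx were not above the level on any array.

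Chemokine ligands that attract monocytes and T cells were high. Of 27 ligands, 23 were above the olfactory receptor level and 22 above the stricter one. Ccl2, the main monocyte attractant, had 12.22, 12.27, 11.90, 12.30 and 12.55. Cxcl9 and Cxcl10, which attract T cells through Cxcr3 and are induced by interferons, averaged 11.86 ± 0.21 and 10.97 ± 0.36, and Ccl5 averaged 10.36 ± 0.16. The neutrophil attractants Cxcl2 and Cxcl1 averaged 9.69 ± 0.36 and 9.34 ± 0.30. Fewer receptors than ligands were above the level, 12 of 21, where 64.2% of all genes were. Those above it included Ccr2, the receptor of Ccl2, at 9.02 ± 0.15, and Cxcr4 at 8.91 ± 0.32. Cxcr3 averaged 7.93 ± 0.15, and Ccr4, Ccr6, Ccr8 and Ccr9 were not above the level on any array.

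All 11 measured genes of MHC class I presentation and all 10 of MHC class II were above both levels. Tap1, which pumps peptides into the endoplasmic reticulum, averaged 10.86 ± 0.23, and Nlrc5, the activator of class I genes, had 11.51, 10.50, 10.86, 10.51 and 10.82, highest on replicate 1. The class I heavy chain genes H2-K1 and H2-D1 were not measured. Cd74, the class II invariant chain, had 11.95, 11.99, 12.04, 11.47 and 11.86, and H2-Ab1 had 12.05, 11.72, 11.85, 11.21 and 11.63, both lowest on replicate 4. The class II list score was 9.85 on that array and 10.09 to 10.25 on the others.

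Genes of the type I interferon response were above the level in 20 of 21 cases although these tumors had received no interferon gene. Oasl2 averaged 10.75 ± 0.12, the RNA sensor Ddx58 10.48 ± 0.22, Ifit1 10.09 ± 0.19 and Rsad2 9.92 ± 0.29. The list score lay within a narrow range, 9.48 to 9.62 (SD 0.06). The level these genes would have without any adenovirus was not measured. Ifnb1 itself had 6.25, 5.96, 6.10, 5.97 and 6.24 and was not above the olfactory receptor level on any array.

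Of 20 cytokine genes 14 were above the level, where 64.2% of all genes were. Mif, the macrophage migration inhibitory factor, averaged 12.59 ± 0.18, Tgfb1 10.68 ± 0.11 and Il1b 10.38 ± 0.40, while Il6 at 5.24 ± 0.27, Il10 at 5.81 ± 0.20 and Csf2 at 5.86 ± 0.29 were below it on all 5 arrays. Genes that restrain immunity were above it in 10 of 11 cases. Cd274, PD-L1, had 10.59, 9.91, 10.24, 10.15 and 10.25, the phagocytosis inhibitor Cd47 averaged 12.02 ± 0.09, and Ptgs2, cyclooxygenase 2, averaged 10.30 ± 0.30. Ido1, the tryptophan-degrading enzyme, was the exception at 6.25 ± 0.12.

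Of 22 fibroblast and interstitial matrix genes 21 were above the level on all 5 arrays, with a median of 9.42. Fn1, fibronectin, averaged 13.04 ± 0.16 and Sparc, a collagen-binding protein, 12.87 ± 0.16. Col1a1, the main chain of type I collagen, had 12.12, 10.36, 10.85, 9.86 and 10.21, and Col1a2 had 11.27, 9.47, 10.17, 9.29 and 9.53. Both were highest on replicate 1 and next highest on replicate 3. The small proteoglycans ran the other way on replicate 1: Dcn, decorin, had 11.22, 12.38, 12.32, 12.33 and 12.25, and Lum, lumican, had 8.30, 9.91, 10.27, 10.32 and 9.52. Without replicate 1 the SD was 0.41 for Col1a1, in place of 0.88, and 0.05 for Dcn, in place of 0.49. Fap, fibroblast activation protein, was at 6.34 ± 0.23 and not above the level on any array.

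All 9 basement membrane genes were above both levels, led by the laminin chain Lamb1 at 11.49 ± 0.07 and Hspg2, perlecan, at 11.33 ± 0.10. They varied little, with a list score SD of 0.07. Among pericyte and smooth muscle genes 11 of 12 were above the olfactory receptor level and 6 above the stricter one. Acta2, smooth muscle actin, averaged 9.60 ± 0.11, Pdgfrb, the pericyte receptor, 8.62 ± 0.11 and Rgs5, a pericyte regulator of G proteins, 8.18 ± 0.16. Myh11, smooth muscle myosin, was at 7.26 ± 0.07, and Cnn1, calponin, was above the level on 1 array.

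Blood endothelial genes were above the level in 21 of 23 cases. Eng, endoglin, averaged 11.23 ± 0.16, Cdh5, the cadherin of endothelial junctions, 9.85 ± 0.25, Flt1, a receptor of vascular endothelial growth factor, 9.03 ± 0.11, Pecam1 8.62 ± 0.18 and Vwf, von Willebrand factor, 8.42 ± 0.11. Cdh5 had 9.55, 10.08, 9.71, 10.14 and 9.75, and Emcn, endomucin of veins and capillaries, had 8.18, 8.90, 8.24, 8.80 and 8.45. Both were highest on replicates 2 and 4. Tek, the angiopoietin receptor, was at 6.90 ± 0.16, above the level on 2 arrays.

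Lymphatic endothelium was not seen in its defining genes. Prox1, its master factor, averaged 6.36 ± 0.09 and was not above the level on any array, and Flt4 was above it on 1. The 2 lymphatic genes of 6 that were above it, Lyve1 and Pdpn, are also made by macrophages and by fibroblasts or carcinoma cells. Lyve1 had 8.32, 9.59, 8.53, 9.20 and 9.72, low on replicates 1 and 3. Of 16 angiogenic ligands 13 were above the level. Vegfa averaged 10.37 ± 0.22, Vegfb 10.27 ± 0.13, Pdgfa 10.14 ± 0.31 and Apln, the ligand of endothelial Aplnr, 10.11 ± 0.42. Thbs1, thrombospondin 1, an inhibitor of vessel growth, averaged 11.54 ± 0.12. Fgf2 was at 6.45 ± 0.12 and not above the level on any array.

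Lists for tissues around the implant differed in which arrays had the high values. Of 18 skeletal muscle genes 10 were above the olfactory receptor level and 5 above the stricter one. Over all genes these shares were 64.2% and 53.1%. Acta1, skeletal actin, had 8.07, 9.11, 8.43, 8.49 and 9.39, and Ckm, muscle creatine kinase, had 8.08, 8.09, 8.13, 7.86 and 8.53. Replicate 5 had the highest muscle score, 7.97, against 7.36 to 7.62 on the others. Of 11 fat genes 9 were above the level. Car3, carbonic anhydrase 3 of fat and muscle, had 7.20, 8.47, 9.97, 10.27 and 9.65, and Fabp4, the fatty acid carrier of fat cells, had 7.80, 7.41, 8.93, 9.28 and 8.36, so both were higher on replicates 3, 4 and 5 than on replicates 1 and 2.

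Replicate 5 was also highest for skin keratins. Krt5 had 7.15, 7.58, 7.27, 7.14 and 8.41, and Krt14 had 7.38, 7.64, 7.18, 7.00 and 8.23, where both encode keratins of the basal epidermis. Alas2, the haem enzyme of red cell precursors, was 8.33 on replicate 5 and 6.81 to 7.02 on the others. Hair follicle genes were above the level on all 5 arrays in 1 of 11 cases and peripheral nerve genes in 4 of 6, where 64.2% of all genes were. The part of such tissue in the differences between tumors was not tested.

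Between the 5 tumors the middle gene varied little, with a median SD of 0.15 (0.12 without replicate 1) over the 13508 genes above the olfactory receptor level on at least 3 arrays. The same genes had median SDs of 0.16 in IFNbeta tumors, 0.20 in p19Arf tumors and 0.19 in tumors with both. Replicate 1 was the lowest or the highest of the 5 for 65.1% of these genes and for 86.0% of the 100 genes of highest SD, being the lowest for 63 of them and the highest for 23. The SD ranking thus rests in large part on that array: when it was left out, 35 of the 100 genes were still among the leading 100. The edge of the ranking lay between Snora23 at an SD of 0.51, inside, and Il1a at 0.51, outside.

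Among named genes Car3 had the highest SD, 1.27 (0.79 without replicate 1), Gzmd 0.92 (1.04), Myl1, a fast muscle myosin light chain, 0.90 (0.56), Col1a1 0.88 (0.41), Cxcl13 0.84 (0.70), Lum 0.83 (0.37) and Col1a2 0.81 (0.39). Ogn, the proteoglycan osteoglycin, had 7.13, 8.49, 8.95, 9.34 and 8.92, lowest on replicate 1. The others were Ly96, Rfc4, Atp5md, Fabp4, Atp6v0d2, Angptl7, Cd59a, Mpc1, Uprt, Trim13, Vat1 and Ly86, of which all but Fabp4 had their lowest value on replicate 1. Ranked without that array, among genes above the level on at least 3 of the others, the leading named genes were Fabp4, Car3, Cxcl13, Gzmf and Alas2, followed by Slc40a1, Ly96, Bank1, Gzmg and Il1a. Gzmd, with an SD of 1.04, was not ranked there, because it was above the level on too few of those arrays. Genes of the variable kind also varied elsewhere: 38 of the 100 were among the leading 100 in IFNbeta tumors, 29 in p19Arf tumors and 26 in tumors with both, or 23, 22 and 20 when the eGFP ranking left out replicate 1.

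**Figure D2:**
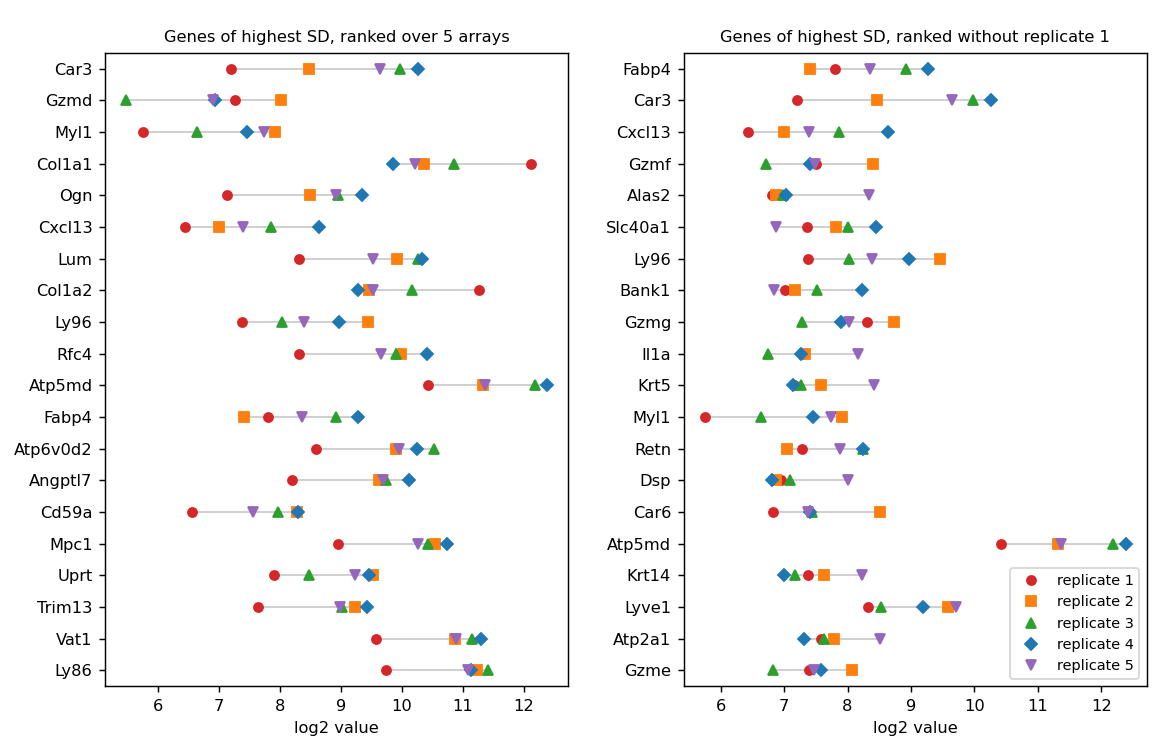
Log2 value on each of the 5 eGFP arrays (x axis) for the 20 named genes of highest SD (rows), ranked over all 5 arrays on the left and without replicate 1 on the right, with marker and colour by replicate. On the left replicate 1 is the lowest point for most genes and the highest for Col1a1 and Col1a2. On the right the extreme point is often replicate 4 (Cxcl13, Bank1) or 5 (Krt5, Alas2).

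The most variable list scores rested less on replicate 1 than the ranking of genes did. The largest SDs of a score over the 5 arrays were 0.38 for fat genes, 0.31 for B cell genes, 0.27 for skin, 0.25 for muscle, 0.24 for interstitial matrix and 0.24 for hair genes. The smallest were 0.04 for oncogenes and tumor suppressors and 0.05 for the mesenchymal program and for inhibitory ligands. Without replicate 1 the matrix SD was 0.16, while those of fat, B cell, skin, muscle and hair genes were 0.38, 0.36, 0.31, 0.26 and 0.28. Hair scores, 6.50 to 7.10, lay near the olfactory receptor level, and 0 of 11 hair genes passed the stricter level. Of skin genes 1 of 12 passed it. The olfactory receptor level was itself highest on replicate 5, at 7.09, and lowest on replicates 4 and 2, at 6.80 and 6.82. The part of array background in the hair and skin scores was not tested.

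**Figure D3:**
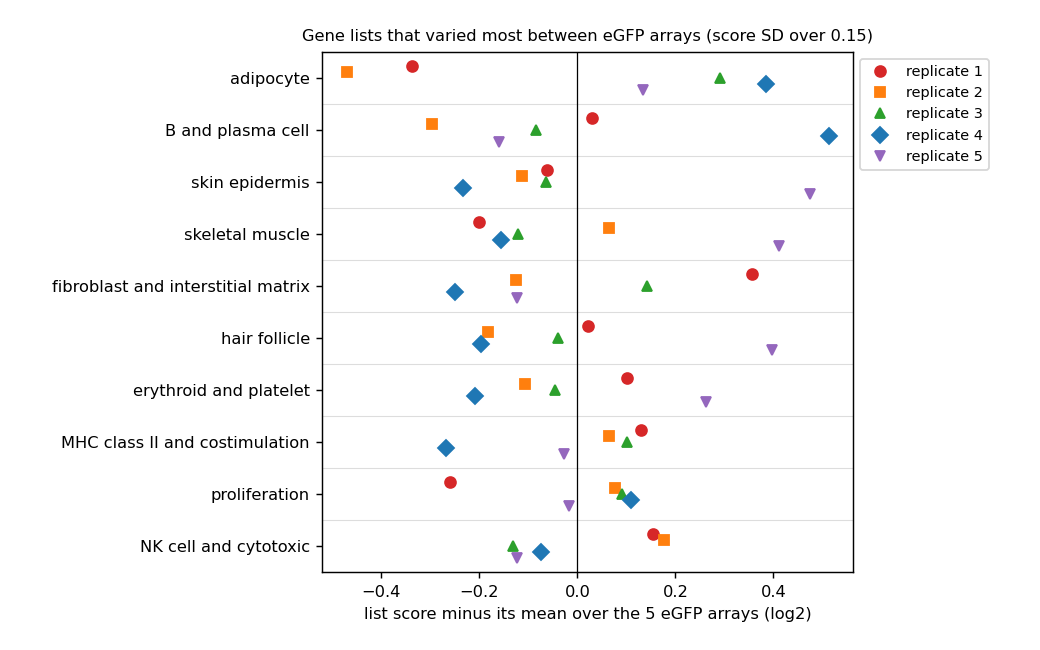
List score on each eGFP array minus the mean of the 5 (x axis, log2) for the lists with a score SD over 0.15 (rows), with marker and colour by replicate. Replicate 4 is highest for B cell and fat genes and lowest for MHC class II, replicate 5 is highest for skin, hair and muscle genes, and replicate 1 is highest for matrix and lowest for proliferation. The hair scores lie near the olfactory receptor level, which was itself highest on replicate 5.

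**Figure D4:**
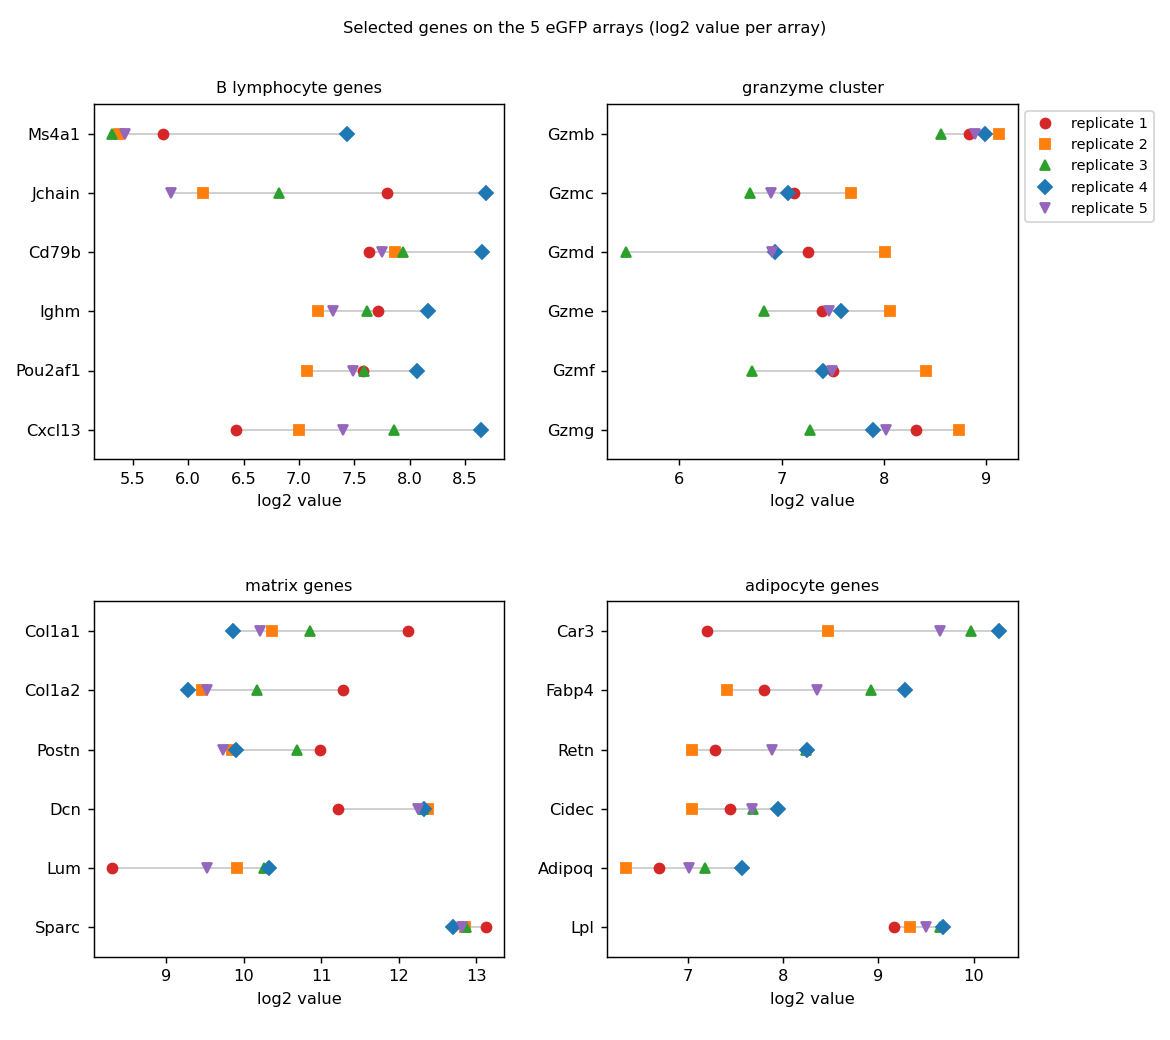
Log2 value on each eGFP array (x axis) of 6 genes in each of 4 sets (rows), with marker and colour by replicate. Replicate 4 leads the B cell genes, replicates 2 and 3 bound the granzymes, and on replicate 1 Col1a1 is at its highest while Dcn and Lum are at their lowest.

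In a limma model of all 20 arrays, eGFP minus the mean of the other 3 groups passed an adjusted p under 0.05 for 0 of 19938 genes (0.0%), with a smallest adjusted p of 0.813. With array weights, which give less weight to arrays that stand apart, 1 gene passed: Dbp, with a difference of 0.52 and an adjusted p of 0.00935 in limma. At an unadjusted p under 0.05, 1061 genes (5.32%) were counted, 604 higher in eGFP (3.03%) and 457 lower (2.29%). No gene had all 5 eGFP arrays above or all below the 15 others (0.0%). Without replicate 1 of eGFP, 0 genes passed, 2596 had an unadjusted p under 0.05, and the smallest adjusted p was 0.101. The p-values measure the spread between arrays, which may be technical.

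The genes with the smallest p in this comparison did not pass it with equally weighted arrays, and each had an adjusted p of 0.813 in limma. Dbp, a clock-controlled transcription factor, had 8.54, 9.15, 8.86, 8.96 and 8.88 in eGFP tumors, against a lowest value of 7.99, a median of 8.42 and a highest of 8.62 in the other 15. The groups overlapped only through replicate 1, and the difference was 0.48 (SE 0.10). Lyve1 differed by 0.78 (SE 0.20), with 7.69, 8.26 and 8.86 as the lowest, median and highest of the others. Cpa3 differed by 0.78 (SE 0.21), Trp53i11 by 0.66 and Alox5, 5-lipoxygenase, by 0.41. On the other side stood Ndn, necdin, at -0.37, the mitochondrial kinase Pdk4 at -0.62, Mfap4, a matrix glycoprotein, at -0.42, Nkiras1 at -0.29 and the replication licensing factor Cdc6 at -0.29. Pdk4 had 6.30, 5.98, 6.47, 6.36 and 6.28 in eGFP tumors, against 6.45, 6.81 and 7.79 as the lowest, median and highest of the others. It was not above the olfactory receptor level on any eGFP array, and Ndn was above it on 3 and Nkiras1 on 4.

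The vector genes did not pass the test either. Cdkn2a averaged 7.43 ± 0.07 in eGFP tumors, against 7.38 in IFNbeta, 7.58 in p19Arf and 7.55 in combination tumors, with a difference of -0.07 (limma adjusted p = 0.912). Ifnb1 averaged 6.10 ± 0.14 in eGFP tumors, against 6.21, 6.00 and 6.03, a difference of 0.03 (adjusted p = 0.981). Neither value checks the labels here, since the groups' means lay close together.

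Skeletal muscle genes were the list that lay farthest from the other vectors. In eGFP tumors 1 of 18 had the higher mean, where 49.6% of all genes did, with a median difference of -0.74. Of the 18, 11 were lower at an unadjusted p under 0.05 in limma, where 2.29% of all genes were. None passed the adjusted threshold. The score was 7.56 ± 0.25 in eGFP tumors, against 8.31 ± 0.72 in IFNbeta, 8.02 ± 0.60 in p19Arf and 8.30 ± 0.59 in combination tumors (SD, n = 5 each), so all 3 other groups spread widely and overlapped the eGFP range of 7.36 to 7.97. Tnnc2, a fast troponin, had 7.57, 7.45, 7.30, 7.22 and 7.91 in eGFP tumors and averaged 8.49 in the others, from 7.30 to 10.24. Myh4, a fast myosin, averaged 6.93 in eGFP tumors and 8.25 in the others.

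The counts of higher means that follow are to be read against 49.6% of all genes. Interferon response genes had the higher mean in eGFP tumors in 4 of 21 cases, or 7 without replicate 1. Their median difference was -0.17 (-0.20 without replicate 1). The score was 9.53 ± 0.06, against 9.96 ± 0.31 in IFNbeta, 9.46 ± 0.26 in p19Arf and 9.59 ± 0.15 in combination tumors. Matrix genes were higher in 5 of 22 cases, with a median of -0.14 (-0.28 without replicate 1). Mesenchymal genes were higher in 16 of 18 cases, with a median of 0.10. Their score was 10.66 ± 0.05 for eGFP, no higher than the 10.66 ± 0.10 of IFNbeta tumors. It was lower with p19Arf alone (10.52 ± 0.11) and with the combination (10.51 ± 0.16). Proliferation genes were higher in 18 of 20 cases, with a median of 0.14. Their score was 10.53 ± 0.15 for eGFP, below the 10.58 ± 0.24 of IFNbeta tumors. With p19Arf alone it was 10.36 ± 0.18, and with the combination 10.24 ± 0.34. Macrophage genes were evenly placed, higher in 12 of 25 (14 without replicate 1). T cell genes were higher in 6 of 19, with a median of -0.09 (-0.17 without replicate 1). Cd8b1 averaged 7.93 in eGFP tumors and 8.40 in the others, a difference of -0.47 with an unadjusted p of 0.00371, and Mmp9 averaged 12.17 and 11.39, a difference of 0.79 with an unadjusted p of 0.0033, both from limma. Of the 539 measured members of all lists, 0 passed the adjusted threshold.

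**Figure D5:**
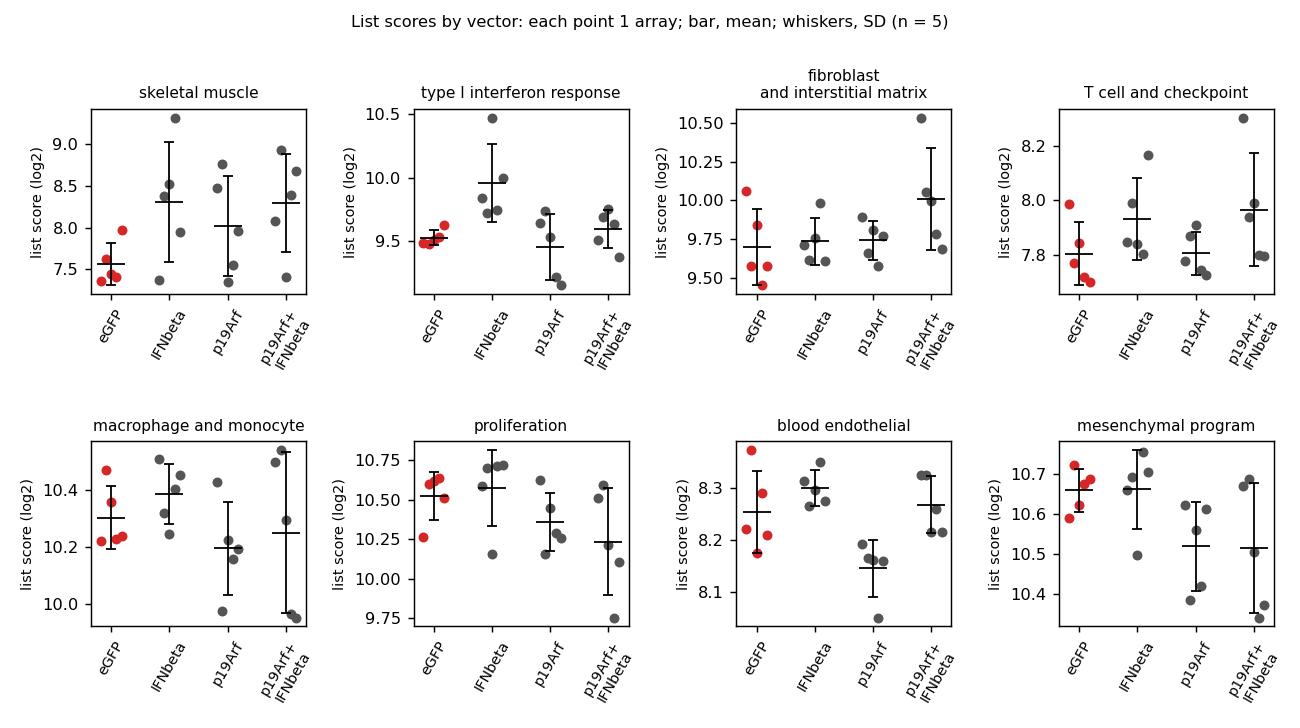
List score of 8 gene lists (y axis, mean log2 value of the members) on every array, by vector (x axis), with eGFP in red, the mean as a bar and the SD as whiskers (n = 5). The eGFP arrays overlap those of at least 1 other vector in every panel, and the muscle panel has the widest spread in the 3 other vectors.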

How the data were processed

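The authors deposited 1 table of log2 expression values, 35556 probe sets by 20 arrays, running from 2.33 to 14.7; the log base was read from this range. Affymetrix Expression Console and GCOS made the values, per the submitters' processing notes; the summarisation and background steps are not given in the sources used. Total RNA was Trizol-extracted and biotin-labelled, per the labels' protocols. No normalization was added.

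Probe sets with 1 symbol (21789) were used, and several symbols (1621) or none listed (12146) were left out. Symbols were updated to the GRCm38.p6 gene table (91 had no match). Of several probe sets per gene, in 999 genes, the one with the highest mean over 20 arrays was kept, giving 19938 genes.

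Genes were tested in limma 3.58.1 (R 4.3.3), with 1 mean per group on 20 arrays, 16 residual degrees of freedom, eBayes, 2-sided, with Benjamini-Hochberg adjustment and a threshold of 0.05. The script was tested on simulated data. Tables and figures used Python 3.11.15, numpy 2.4.6, pandas 2.3.3, scipy 1.17.1 and matplotlib 3.10.9, and promoters were aligned with Biopython 1.88. Named genes were the 20 highest by mean and the 20 highest by SD, the 5 of smallest p in each direction of the contrast, all without predicted, ribosomal protein, mitochondrial, histone, microRNA and small nucleolar RNA genes, any list member and the vector genes. The members and the lists were chosen with earlier results of these data known, so lists are described by counts and medians with no test. Of 576 list members written, 539 were measured. Alternatives were the probe set rule, quantile normalization, median centring, moderation, array weights, a low value filter, a replicate block, a covariate, other expression levels and leaving out replicates. The number of arrays limits the precision. Same-numbered arrays of different groups did not consistently deviate together (30 pairs, correlations from -0.62 to 0.66, with 11 over 0.1).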

Additional observations from a re-analysis of the deposited data

Results flagged for a closer look

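Among the 5 eGFP arrays, 93 sets of values were examined (37 list scores, 6 array measures and 50 named genes), and 13 had 1 array far from the other 4 by Dixon's test. Chance alone flags about 1 set in 20 where sets are independent and not chosen by their spread. Here the sets share the same arrays, and 20 genes had been chosen for a high SD on them, so the number is a description. Of the 13, 11 lay on replicate 1, the array that stood apart. The genes Rpph1 (14.38) and Cdc6 (8.16) were high on replicate 1. Txn1 (13.51), Rhoa (12.95), Atp5b (12.74), Angptl7 (8.20), Mpc1 (8.96), Trim13 (7.63), Vat1 (9.58) and Ly86 (9.74) were low on it. The score of oncogenes and tumor suppressors was low on it as well, at 9.60. On replicate 5 the scores of epithelial keratins and junctions (7.68) and of skin epidermis (7.39) were high; the 2 lists hold different genes. The causes were not tested.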

How the results depend on the processing

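With array weights 1 gene passed in place of 0, Dbp, with a difference of 0.52 and an adjusted p of 0.00935 in limma, and 2881 genes had an unadjusted p under 0.05. The cause was not tested. Leaving out any 1 of the 20 arrays kept the count of genes that passed at 0; the unadjusted count ran from 384 (without eGFP replicate 2) to 2596 (without eGFP replicate 1), with 449 without replicate 4, 573 without replicate 5 and 1614 without p19Arf+IFNbeta replicate 2. With the replicate number as a block, 0 genes passed and 851 had an unadjusted p under 0.05; of the arrays, 3 of 20 correlated best with their own number, and the numbers were not taken as pairs. Under the probe set mean, quantile normalization, median centring, trended and robust moderation, the covariate and the low value filter, 0 genes passed and 919 to 1229 had an unadjusted p under 0.05. The SD ranking shared 35 of 100 genes when replicate 1 was left out and 75 to 90 for the other replicates, 79 after quantile normalization, 80 with no filter and 98 with the probe set mean. The mean ranking shared 87 with the probe set mean and 97 to 100 under the others. The count of expressed genes was 9849 at the 99th percentile of the olfactory receptor genes, 15998 at the vomeronasal receptor level and 10584 at the highest unrelated tissue gene, a level chosen after seeing the data, with 302, 488 and 328 list members; leaving out replicates gave 12822 to 12950 genes and 401 to 407 members. Among the counts, rankings, means, SDs and gene differences followed across these settings, none reversed. Median differences of the gene lists were not among them. With quantile normalization that median changed sign for some lists, as for hypoxia (0.08 to -0.004) and chemokine ligands (0.01 to -0.03). It kept its sign for others, as for muscle (-0.70), interferon response (-0.21), mesenchymal (0.04) and proliferation genes (0.07). For macrophage genes it went from -0.006 to 0.04 without replicate 1. The table gives no background estimate per probe set, so genes near the level cannot be called.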
